A study of Mus musculus with 31 samples.

Results

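A set of 9 genes of the complement system was followed through 3 RNA-seq count tables of Panc02 mouse pancreatic adenocarcinoma cells: the components C3, Cfb, Cfd, C1s1, C1ra and C4b and the regulators Cd55, Cd59a and Serping1. They were chosen by gene symbol. All 9 of 9 symbols had 1 row in each table, out of 55487 genes in the conditioned-medium table, 56980 in the table of 2D and 3D cultures and 56941 in the rescue table. After the filter on low counts 5 of the 9 could be tested in the conditioned-medium table, 6 in the 2D and 3D table and 9 in the rescue table.

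The study cultured Panc02 cells as spheroids in Matrigel and compared their transcriptomes across 31 libraries. In the conditioned-medium experiment 3D spheroids of unedited cells received plain control medium with serum (Ctrl, n = 3), medium conditioned by unstimulated bone-marrow-derived macrophages (M0-CM, n = 3) or medium conditioned by macrophages activated with IFNγ and LPS (M1-CM, n = 3). By the study's methods both conditioned media also held supernatant of L929 cells, which the control medium is not said to hold. Comparisons with Ctrl therefore include this difference, and M1-CM against M0-CM does not. In the culture experiment WT and Cxcl5-/- cells were grown in 2D or in 3D, with 3 libraries in each of the 4 groups. In the rescue experiment all cells were grown in 3D, as WT (n = 2), Cxcl5-/- (n = 2), Cxcl5-/- cells carrying a stabilized Hif1a (Hif1aOE Cxcl5-/-, n = 3) and Cxcl5-/- cells overexpressing Myc (MycOE Cxcl5-/-, n = 3). Cxcl5 had been disrupted by CRISPR with a lentiviral vector and puromycin selection, and both transgenes were introduced with a retroviral vector into Cxcl5-/- cells, so the overexpressing groups share the deletion with their Cxcl5-/- control. The methods name no control vector. Vector and selection may therefore also differ between the overexpressing groups and Cxcl5-/-, and between Cxcl5-/- and WT. No source used here says that the edited cells were a single clone, and the labels do not say whether the libraries of a group came from separate cultures. The methods mention biological replicates for the experiments in general, without tying them to these libraries, so p-values measure the spread between these libraries, which may be technical. The labels name the cell line Panc02 in the first 2 tables, while the rescue samples carry names that run from Panc03 to Panc12, 1 per sample, and were taken here as the same line, the one the study names.

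Complement is a cascade of plasma and tissue proteins that tags and lyses targets and releases inflammatory peptides. C1ra and C1s1 encode the serine proteases of the C1 complex, in which C1s opens the classical pathway by cutting C4 (here C4b) and C2. Factor B (Cfb), cut by factor D (Cfd), forms the convertase of the alternative pathway, and all pathways meet at C3. Cd55 speeds the decay of convertases, Cd59a blocks the membrane attack complex, and Serping1, the C1 inhibitor, inactivates C1r and C1s. Most plasma complement comes from the liver, but epithelial, stromal and tumor cells also transcribe several components, and C3 and Cfb are classical acute-phase genes.

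Library totals ran from 41542533 to 78498230 counts. Levels are given as CPM, a library's counts scaled to the same library size after TMM scaling (a correction for composition) within a table, and levels are compared between tables only as values side by side. Where groups are said not to overlap, the share of all genes that also did not was not counted, so such statements describe values only. The 5 genes with clear counts were C3, C4b, C1s1, C1ra and Cfb. Their levels in all libraries are plotted by group.

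**Figure D1:**
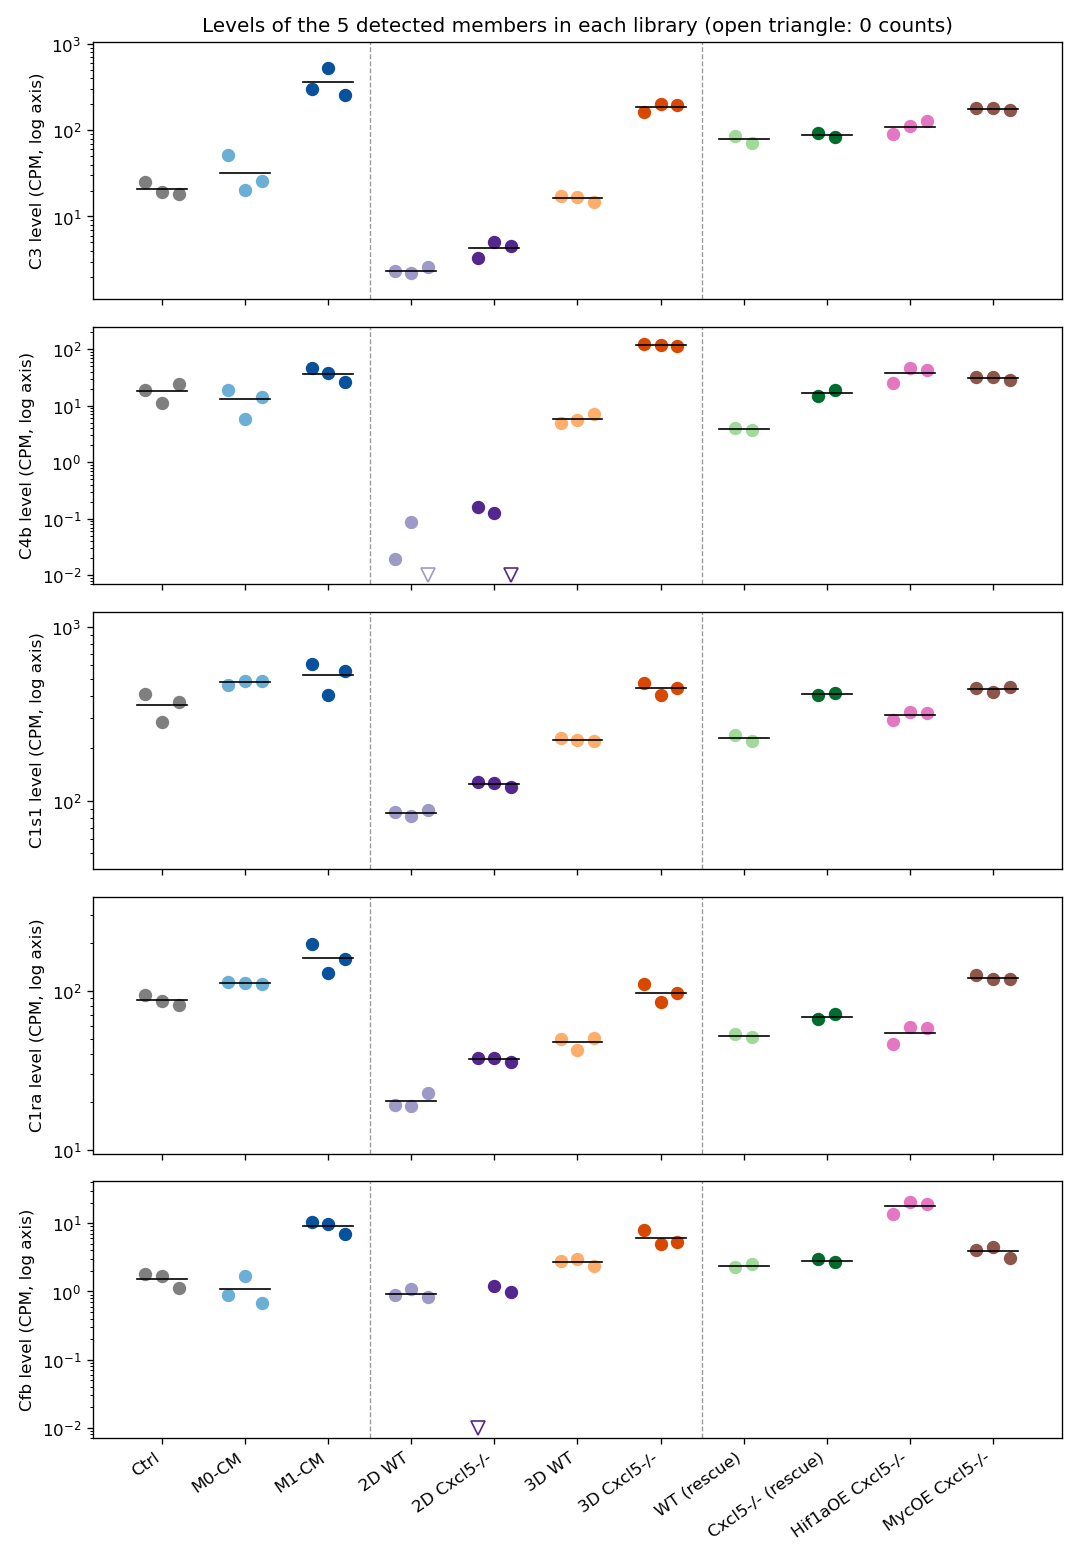
Level of C3, C4b, C1s1, C1ra and Cfb (CPM, log axis) in each of the 31 libraries by group, with a bar at the group mean and open triangles for libraries with 0 counts; dashed lines separate the 3 tables. C3 stood at 256 to 524 CPM with M1-CM against 18.1 to 25.4 in Ctrl, and C4b at 115 to 122 in the 3D libraries labelled Cxcl5-/- against 4.96 to 7.25 in 3D WT.

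Per kilobase of exon, C1s1 was the most abundant member in all 11 groups, from 27.2 CPM per kb in 2D WT to 168 CPM per kb with M1-CM. C1ra was next in 8 groups. C3 ranked above C1ra in the other 3, at 69.8 against 54.1 CPM per kb with M1-CM, 36.5 against 32.7 in the 3D libraries labelled Cxcl5-/- and 21.5 against 18.3 in Hif1aOE Cxcl5-/-. In each of these 3 groups the libraries' values for C3 and C1ra overlapped, with 49.8 to 102 against 43.6 to 65.6, 31.6 to 39.7 against 28.7 to 36.7, and 17.4 to 25.1 against 15.4 to 19.9 CPM per kb. C3 thus moved from 0.459 CPM per kb in 2D WT to the neighbourhood of C1ra, whereas C4b went from 0.00618 to 20.8 CPM per kb between 2D WT and the 3D libraries labelled Cxcl5-/-.

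In the GRCm38 genome C1ra (chromosome 6, 124512405 to 124523443, plus strand) and C1s1 (chromosome 6, 124530345 to 124542359, minus strand) are neighbours. C4b (chromosome 17, 34728380 to 34743882, minus strand) and Cfb (chromosome 17, 34856374 to 34862518, minus strand) lie near each other, and C3 (57203970 to 57228136, minus strand) is on the same chromosome. Cd59a (104095801 to 104115354, plus strand) and Serping1 (84765387 to 84775444, minus strand) are on chromosome 2, Cd55 (130439027 to 130462744, minus strand) is on chromosome 1 and Cfd (79890853 to 79892655, plus strand) is on chromosome 10.

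Several members share sequence with a close copy. Of all stretches of 1 read length in the longest annotated transcript, 34.3% of those of C1ra also occur in C1rb, 16.3% of those of C4b in C4a, 7.70% of those of C1s1 in C1s2, 5.44% of those of Cd55 in Cd55b and 0.234% of those of Cd59a in Cd59b. How the counting placed reads from these stretches is not given in the sources used here, so a part of the C1ra and C4b counts is uncertain. Cfb overlaps the annotated span of Gm20547 (34856412 to 34882042, same strand), a longer gene model, and counts can go to either name.

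The stretches of 250 bases before the RefSeq start of C3, C1s1 and C1ra are shown because these genes moved together in the culture experiment. RefSeq promoter entries (GRCm38.p6) were found for 6 of the 9 members. C4b, which moved with them, had no entry. The C1ra window runs past the gene start given above (124512405), so much of it lies inside the gene as placed there. Capitals mark matches to the C/EBP letters TTGCNNAA on either strand. All lines read 5′ to 3′ along the gene.
C3, chr17:57228137-57228386, minus strand: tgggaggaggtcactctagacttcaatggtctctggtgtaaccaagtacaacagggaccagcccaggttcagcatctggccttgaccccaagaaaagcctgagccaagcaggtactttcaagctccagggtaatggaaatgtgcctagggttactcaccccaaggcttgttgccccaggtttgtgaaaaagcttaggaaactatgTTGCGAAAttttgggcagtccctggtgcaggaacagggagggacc
C1s1, chr6:124542360-124542609, minus strand: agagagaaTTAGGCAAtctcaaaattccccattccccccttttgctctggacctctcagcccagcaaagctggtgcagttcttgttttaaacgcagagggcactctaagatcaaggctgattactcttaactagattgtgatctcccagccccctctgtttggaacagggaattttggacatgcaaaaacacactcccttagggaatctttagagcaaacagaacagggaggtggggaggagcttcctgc
C1ra, chr6:124512371-124512620, plus strand: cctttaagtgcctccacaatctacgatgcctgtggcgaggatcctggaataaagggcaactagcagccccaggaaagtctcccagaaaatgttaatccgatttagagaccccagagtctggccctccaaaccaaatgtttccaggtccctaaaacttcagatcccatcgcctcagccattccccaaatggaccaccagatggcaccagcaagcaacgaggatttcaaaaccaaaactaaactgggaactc
In C3 the match spans bases 45 to 38 before the start, on the strand of the gene. C1s1 has its match on the other strand, 242 to 235 bases before the start, and its other RefSeq entry, with a start nearer to the gene body, holds no match in its own window (chr6:124542322-124542571). A match to these letters was present in 9.56% of the 32851 promoter windows of the same length. None of these 3 windows held a match, on either strand, to GAS (TTCNNNGAA, in 7.02% of windows), ISRE (2.98%), the hypoxia response element (ACGTG, 16.6%) or the E-box (CACGTG, 6.02%, which contains the letters of the hypoxia element) or the NF-kB consensus (7.25%). A match or its absence describes letters only.

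The conditioned-medium comparisons ask what macrophage-derived medium changes in 3D tumor cells. C3, the protein on which all complement pathways converge, was at 25.4, 19.0 and 18.1 CPM in the Ctrl libraries, 51.3, 20.03 and 25.5 CPM with M0-CM, and 298, 524 and 256 CPM with M1-CM. All M1-CM libraries lay above all others, while M0-CM and Ctrl overlapped. C3 rose 17.2-fold over Ctrl with M1-CM (log2 fold change 4.11 ± 0.41, SE, adjusted p = 0.0129) and 11.1-fold over M0-CM (3.48 ± 0.40, adjusted p = 0.0435). With M0-CM it differed from Ctrl by 0.63 ± 0.37 on the log2 scale (adjusted p = 1).

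C3 was the single member past the limit in each M1-CM comparison, where a call required a log2 fold change beyond 1 in either direction besides an adjusted p under 0.05. Among all 19207 genes tested, 0.0156% were called up and 0% down with M1-CM against Ctrl, and again 0.0156% up and 0% down against M0-CM, both being 3 genes. M0-CM against Ctrl gave 0 members and 0% of genes up and 0% down by edgeR, with 569 genes at an unadjusted p under 0.05, and DESeq2 called 14 up and 3 down. The comparisons share libraries, since M1-CM stands in both of its own, and the C3 call is not evidence independent of the study, which selected genes on these libraries.

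The C3 call over Ctrl rested on every Ctrl library and was also lost with the replicate block (4.12, adjusted p = 0.0607). Without Ctrl replicate 1 the log2 fold change was 4.27 (adjusted p = 0.0612), without replicate 2 it was 4.06 (0.160) and without replicate 3 it was 4.01 (0.122). Against M0-CM the adjusted p ran from 0.0571 to 0.194 with DESeq2 size factors, library totals, a stricter count filter, the replicate block or only these groups in the fit, at log2 fold changes of 3.50 to 3.57. It was also lost without any 1 of 7 libraries, all 3 of Ctrl, M0-CM replicates 2 and 3 and M1-CM replicates 1 and 2 (3.11 to 3.59, adjusted p = 0.0662 to 0.386). DESeq2 on all libraries kept the C3 call in both M1-CM comparisons.

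Cfb, the catalytic subunit of the alternative convertase, was also highest in the M1-CM libraries, but not past the limit. It was at 1.79, 1.69 and 1.13 CPM in Ctrl, 0.892, 1.70 and 0.683 CPM with M0-CM and 10.4, 9.87 and 6.93 CPM with M1-CM. The M1-CM libraries did not overlap either group, at log2 fold changes of 2.56 ± 0.39 over Ctrl (adjusted p = 0.120) and 3.05 ± 0.40 over M0-CM (adjusted p = 0.0761). DESeq2 called both, with adjusted p = 1.65e-07 and 6.14e-11.

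For the classical pathway the M1-CM difference was smaller. C4b was at 18.9, 11.3 and 24.0 CPM in Ctrl, 19.0, 5.77 and 14.1 CPM with M0-CM and 46.1, 37.3 and 26.6 CPM with M1-CM, 1.02 ± 0.42 above Ctrl on the log2 scale (adjusted p = 0.965). C1ra was at 94.4, 85.6 and 81.6 CPM in Ctrl, at 111 to 113 CPM with M0-CM and at 196, 130 and 158 CPM with M1-CM, 0.89 ± 0.16 over Ctrl (adjusted p = 0.197). C1s1 overlapped between M1-CM and Ctrl, at 408 to 609 against 284 to 409.8 CPM. Neither C4b nor C1ra overlapped between M1-CM and the other groups, which describes the values only, as the share of all genes without overlap was not counted. Cd55, Cd59a, Serping1 and Cfd were at 0 counts in Ctrl and at no more than 11 counts in any of the 9 libraries, and were not tested.

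Of 11 listed macrophage markers, 7 to 8 were at 3 counts or fewer in all libraries of a group, Adgre1, Itgam and Tyrobp among them with group means of 0 to 0.017 CPM, and the summed level of the list was 32.9 to 51.7 CPM with M1-CM and 34.2 to 51.8 CPM in Ctrl, mostly from Cd14. The 3 genes whose log2 CPM followed C3 most closely over the 9 libraries were Cxcl3 (Pearson r = 0.965), Cxcl5 (0.961) and Lcn2 (0.959), among 13675 genes with a mean of at least 1 CPM. This is a description over libraries that fall into the same 3 groups. Between members, r with C3 was 0.891 for Cfb, 0.831 for C1ra, 0.765 for C4b and 0.508 for C1s1.

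The culture experiment asks how 3D growth and the Cxcl5 deletion change the cells. Cxcl5 itself was at 45.6 to 49.1 CPM in 2D WT and 32.7 to 37.4 CPM in 2D Cxcl5-/- (log2 fold change -0.47, adjusted p = 0.0705). In 3D it was at 24.5 to 28.5 CPM in WT and 40.9 to 65.5 CPM in the libraries labelled Cxcl5-/- (0.91, adjusted p = 0.000173). Its transcript was therefore higher, not lower, in the latter. A gene-level count does not read the edited site, so this difference does not test the label. The study's methods report that the knockout was established by immunoblot of the protein. Hif1a and Myc ran the same way as in the rescue experiment, at means of 369 CPM in 3D WT and 159.6 CPM in the 3D libraries labelled Cxcl5-/- for Hif1a (-1.21, adjusted p = 4.13e-07) and 34.98 and 10.4 CPM for Myc (-1.75, adjusted p = 8.94e-08), beside -1.18 and -1.17 in the rescue comparison of genotypes. The study reports, by qRT-PCR, that loss of the gene impaired the rise of both these transcripts in spheroids. The directions below for 3D Cxcl5-/- rest on the libraries as labelled.

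C3 separated all 4 groups. It was at 2.33, 2.19 and 2.56 CPM in 2D WT, 3.33, 5.003 and 4.54 CPM in 2D Cxcl5-/-, 17.3, 16.9 and 14.5 CPM in 3D WT and 162, 204 and 196 CPM in the 3D libraries labelled Cxcl5-/-. From 2D to 3D it rose 6.87-fold in WT (log2 fold change 2.78 ± 0.15, adjusted p = 7.39e-09) and 43.7-fold in Cxcl5-/- (5.45 ± 0.16, adjusted p = 1.14e-10). Against WT, the libraries labelled Cxcl5-/- were 1.82-fold higher in 2D (0.86 ± 0.15, adjusted p = 0.00234) and 11.6-fold higher in 3D (3.53 ± 0.14, adjusted p = 1.24e-09). The difference between the 3D and the 2D genotype effect was 2.67 ± 0.20 on the log2 scale (adjusted p = 1.35e-06).

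C4b, the target of C1s, was nearly absent in 2D. It had 1, 6 and 0 counts in 2D WT and 11, 8 and 0 counts in 2D Cxcl5-/-, against 256, 238 and 393 counts in 3D WT and 7748, 6800 and 7535 counts in the 3D libraries labelled Cxcl5-/-. In CPM the 3D groups were at 4.96, 5.56 and 7.25 and at 122, 118 and 115. C4b rose with 3D culture in WT (log2 fold change 7.28 ± 0.46, adjusted p = 3.74e-08) and in Cxcl5-/- (10.21 ± 0.39, adjusted p = 3.87e-10), and both values rest on the few 2D counts given. In 3D it was 19.95-fold higher in the libraries labelled Cxcl5-/- than in WT (4.32 ± 0.26, adjusted p = 3.05e-08). Its difference of genotype effects was 2.94 ± 1.21 (adjusted p = 0.0892), and DESeq2 put the same difference at 2.86 with adjusted p = 0.0174.

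The C1 proteases moved by less and in the same order of groups. C1s1 was at 85.7, 81.3 and 88.0 CPM in 2D WT, 129, 127 and 120 CPM in 2D Cxcl5-/-, 229, 223 and 219 CPM in 3D WT and 477, 407 and 446 CPM in the 3D libraries labelled Cxcl5-/-. None of these 4 groups overlapped. It rose 2.63-fold with 3D culture in WT (log2 fold change 1.40 ± 0.08, adjusted p = 1.45e-08), 1.47-fold in 2D Cxcl5-/- over WT (0.56 ± 0.08, adjusted p = 0.00042) and 1.98-fold in the 3D libraries labelled Cxcl5-/- (0.99 ± 0.08, adjusted p = 3.93e-07). The genotype effect was larger in 3D by 0.43 ± 0.11 (adjusted p = 0.012), a call lost without 2D WT replicate 3 (0.35, adjusted p = 0.0554).

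C1ra was at 19.2, 18.9 and 22.6 CPM in 2D WT, 37.6, 37.9 and 35.5 CPM in 2D Cxcl5-/-, 49.5, 42.2 and 50.5 CPM in 3D WT and 109.5, 85.5 and 97.1 CPM in the 3D libraries labelled Cxcl5-/-. It rose with 3D culture in WT (log2 fold change 1.23 ± 0.11, adjusted p = 6.7e-07) and against WT in 2D Cxcl5-/- (0.87 ± 0.11, adjusted p = 0.000139) and in 3D (1.04 ± 0.11, adjusted p = 3.71e-06). The genotype effect differed between 3D and 2D by 0.17 ± 0.15 (adjusted p = 0.447), which with library totals as scaling became 0.53 (adjusted p = 0.00468).

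Cfb was lower throughout. It was at 0.886, 1.08 and 0.834 CPM in 2D WT, 0, 1.21 and 0.971 CPM in 2D Cxcl5-/-, 2.79, 3.01 and 2.38 CPM in 3D WT and 8.11, 5.01 and 5.39 CPM in the 3D libraries labelled Cxcl5-/-. The 3D groups did not overlap each other or the 2D groups. Even so, 3D against 2D in WT gave a log2 fold change of 1.54 ± 0.66 (adjusted p = 0.073) and the 3D genotype comparison 1.18 ± 0.62 (adjusted p = 0.141), while 3D against 2D in Cxcl5-/- was past the limit (3.09 ± 0.68, adjusted p = 0.00152).

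One library decides those Cfb calls. In 2D Cxcl5-/- replicate 1, Cfb had 0 counts and the overlapping gene Gm20547 had 51, while Gm20547 had at most 12 counts in the other libraries of this table. In the conditioned-medium table Gm20547 had 106 counts in M0-CM replicate 3, beside 40 for Cfb. With the counts of both names added, an alternative chosen after seeing the data, Cfb rose in 3D WT over 2D WT (1.55, adjusted p = 0.000121), in the 3D genotype comparison (1.19, adjusted p = 0.000734) and in the difference of genotype effects (1.13, adjusted p = 0.022). Without 2D Cxcl5-/- replicate 1 the 3D calls were 1.51 (adjusted p = 0.000151) and 1.24 (adjusted p = 0.000559).

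**Figure D2:**
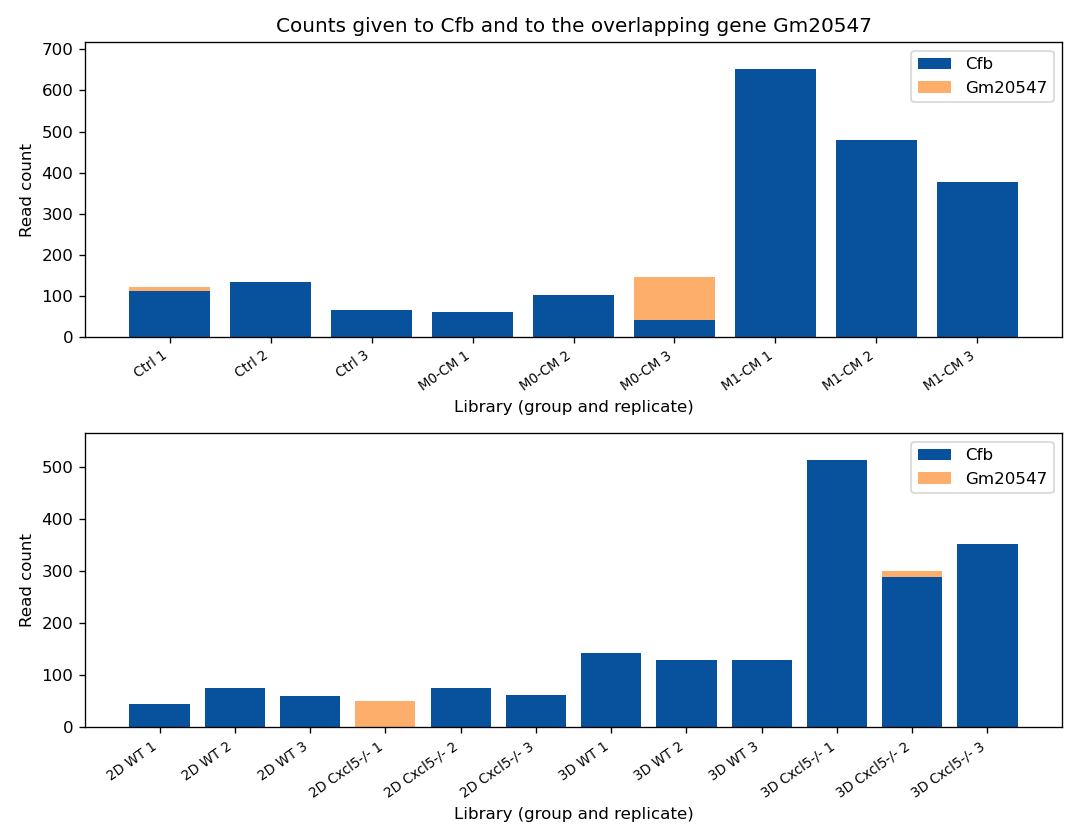
Read counts given to Cfb (blue) and to the overlapping gene Gm20547 (orange), stacked, in each library of the conditioned-medium table (top) and of the 2D and 3D table (bottom). In 2D Cxcl5-/- replicate 1 all 51 counts, and in M0-CM replicate 3 106 counts, stand under Gm20547.

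Counting members past an adjusted p under 0.05, 4 of the 6 tested rose from 2D to 3D in WT, where 22.2% of all 21367 genes were called up and 22% down. In the Cxcl5-/- cells 6 of 6 rose with 3D culture, where 28.7% of genes were called up and 28.2% down. Cfd and C4b, nearly without counts in 2D, passed the low-count filter through 3D libraries. Their rises from 2D to 3D are therefore not independent of that filter. Between genotypes 3 of 6 rose in 2D (3.86% up, 3.17% down) and 4 of 6 in 3D (19.7% up, 25.3% down), and 2 of 6 were past the limit for the difference of genotype effects (11.1% up, 16.1% down). No member was called down in these comparisons. The comparisons share groups, so their counts are not independent. Cfd, the protease that cuts factor B, had 7, 8 and 15 counts in the 3D libraries labelled Cxcl5-/- and 0 in all 2D Cxcl5-/- libraries, which makes it at least 3.45-fold higher (adjusted p = 0.0224), taking a floor of 3 counts per library. That call was lost without any 1 of the 2D Cxcl5-/- libraries or 3D replicate 3 (adjusted p = 0.0578 to 0.0613). Cd55 stayed at no more than 11 counts and Serping1 at no more than 8 in any library of this table, and Cd59a was at 0 in all 12, so none of these 3 was tested.

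**Figure D3:**
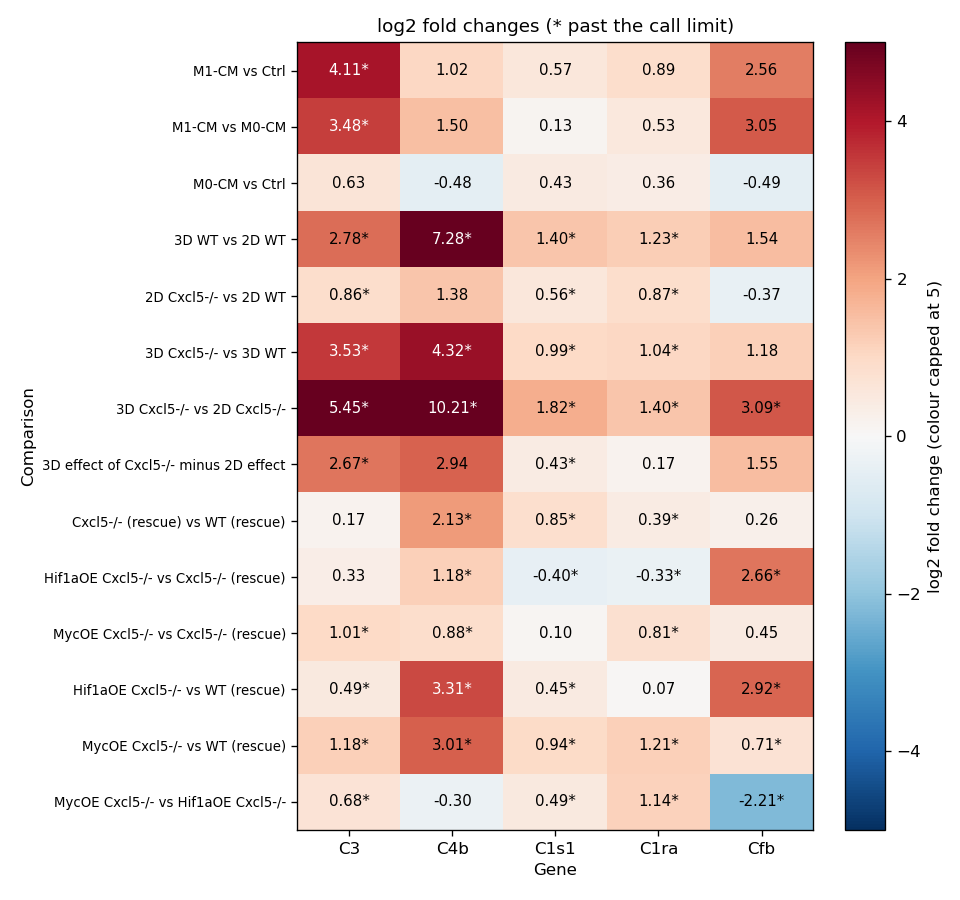
log2 fold change (colour and number, edgeR) of C3, C4b, C1s1, C1ra and Cfb in the 14 comparisons, with an asterisk where the call limit was passed; colours are capped at 5 on either side. C4b has the widest range, up to 10.21 for 3D against 2D in Cxcl5-/-, and Cfb falls by 2.21 from Hif1aOE to MycOE Cxcl5-/- cells.

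Over the 12 libraries of the culture experiment, r between members on the log2 CPM scale was 0.981 for C3 and C1s1, 0.961 for C3 and C4b, 0.950 for C3 and C1ra and 0.707 for C3 and Cfb. The genes most like C3 were Pappa2 (0.996), Rgmb (0.995) and Bmf (0.995). These points share groups and libraries and are given as a description.

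Other complement genes, from a list of 48, moved in the same tables. Of the 23 tested in the culture table, 12 rose and 2 fell from 2D to 3D in WT (22.2% and 22% of all genes), 6 rose and 2 fell in 2D Cxcl5-/- (3.86% and 3.17%), 13 rose and 3 fell in the 3D libraries labelled Cxcl5-/- (19.7% and 25.3%), and 16 rose and 1 fell from 2D to 3D in Cxcl5-/- (28.7% and 28.2%). The median log2 fold change of the list was 1.09, 0.00, 0.74 and 1.56 in these comparisons, against 0.00, -0.02, -0.04 and 0.11 over all genes. Among the 17 tested with conditioned media, 0 were past the limit in any comparison by edgeR.

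Clu, clusterin, an inhibitor of the terminal complex, was at 4.81 to 5.51 CPM in 3D WT and 25.6 to 35.5 CPM in the 3D libraries labelled Cxcl5-/-, and it rose from 2D to 3D in WT by 3.38 and in Cxcl5-/- by 4.89 on the log2 scale (adjusted p = 9.09e-08 and 1.57e-09). C1qc and C1qb, chains of the C1q recognition molecule, had a mean of 1.39 and 1.37 CPM in the 3D libraries labelled Cxcl5-/-. C1qc was at 0 in 3D WT, which makes it at least 23-fold higher (adjusted p = 0.000196). C1qa, the partner chain, was at means of 0.073 and 0.016 CPM in these groups.

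The paralogs C4a, C1s2 and C1rb rose with the members C4b, C1s1 and C1ra, with which they share the stretches given above, so misplaced reads in either direction cannot be told apart from their own. C4a was at 1.03 to 1.45 CPM in 3D WT and 6.46 to 8.46 CPM in the 3D libraries labelled Cxcl5-/- (log2 fold change 2.59, adjusted p = 2.95e-07). C1s2 rose by 1.77 and C1rb by 1.61 in the same comparison (adjusted p = 2.6e-05 and 9.06e-06), beside 0.99 for C1s1 and 1.04 for C1ra. Cd59b and Cd55b were at 0 counts in all libraries of the culture table.

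Markers of cell types moved with these groups. Of 7 fibroblast markers the summed level was 156 to 169 CPM in 3D WT and 396 to 453 CPM in the 3D libraries labelled Cxcl5-/-, with 0 and 1 markers at 3 counts or fewer, and mainly Pdgfra (mean 21.3 and 214 CPM) and Pdgfrb (88.3 and 206 CPM) rising while Dcn (37.7 and 2.82 CPM) was lower. Of 8 ductal and epithelial markers it was 854 to 1098 and 218 to 238 CPM, with 0 and 2 at 3 counts or fewer, and mainly Krt8 (569 and 147 CPM) and Krt18 (347 and 58.4 CPM). The epithelial markers Epcam and Cdh1 were at 0 counts in all 2D libraries. Macrophage markers summed to 39.4 to 44.1 and 38.4 to 50.7 CPM, and 5 endothelial markers to at most 0.627 CPM. Of the macrophage markers, 2 had a mean over 1 CPM in 3D WT and 4 in the 3D libraries labelled Cxcl5-/-. C1qa, C1qb and C1qc, given above, are on that list. In bulk libraries a change in the share of cells and a change in RNA per cell cannot be told apart, and the part of these markers in the complement results was not tested.

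The rescue experiment repeats the 3D comparison of genotypes and asks what Hif1a and Myc restore. Cxcl5 was at 64.2 and 67.7 CPM in WT and 36.6 and 40.2 CPM in Cxcl5-/-. Hif1a was at 133 and 144 CPM in Cxcl5-/- and 243 to 296 CPM in Hif1aOE Cxcl5-/-, but also at 241 to 271 CPM in MycOE Cxcl5-/- and at 304 and 324 CPM in WT, so its level does not mark the Hif1aOE libraries. Myc was at 20.02 and 22.3 CPM in Cxcl5-/- and 397 to 548 CPM in MycOE Cxcl5-/-. The WT libraries stand apart at low counts. They had 35865 and 35921 genes with more than 3 counts, against 23421 to 26302 in the other 8 libraries, and 1293 and 1296 of 1417 olfactory receptor genes with at least 1 count, against 209 to 689. In the culture experiment 3D WT had 600 to 825 of 1413 and the 3D libraries labelled Cxcl5-/- had 196 to 274.

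C3 did not separate the genotypes here. It was at 85.2 and 71.5 CPM in WT and 92.9 and 83.0 CPM in Cxcl5-/-, ranges that overlap, with a log2 fold change of 0.17 ± 0.15 (adjusted p = 0.384). C4b was higher in Cxcl5-/-, at 14.9 and 18.9 CPM against 3.95 and 3.78 CPM in WT (2.13 ± 0.26, adjusted p = 6.52e-05). C1s1 was at 407 and 415 CPM against 238 and 219 CPM (0.85 ± 0.09, adjusted p = 2.63e-05). C1ra was at 66.05 and 71.2 CPM against 53.2 and 51.2 CPM (0.39 ± 0.12, adjusted p = 0.0213), a call lost when any 1 of these 4 libraries was left out (adjusted p = 0.0566 to 0.133) and with DESeq2 size factors (0.30, adjusted p = 0.0608). Cfb was at 2.99 and 2.70 CPM against 2.25 and 2.5 CPM (0.26 ± 0.24, adjusted p = 0.393).

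The genotype effect in 3D was therefore compared between the 2 experiments in 1 fit over their 10 WT and Cxcl5-/- libraries, a comparison added after seeing the data. C3 differed by 3.38 ± 0.18 on the log2 scale, C4b by 2.20 ± 0.23 and C1ra by 0.66 ± 0.17, all larger in the culture experiment (adjusted p = 5.35e-06, 0.00024 and 0.0395), with 3.39% of 27239 genes called up and 5.59% down. C1s1 differed by 0.15 ± 0.13 (adjusted p = 0.521) and Cfb by 0.93 ± 0.33 (adjusted p = 0.105). Leaving out 1 library took the C1ra call away in 8 of 10 cases, at 0.56 to 0.72 and an adjusted p of 0.0517 to 0.180. The C3 level of WT was 14.5 to 17.3 CPM in the culture experiment and 71.5 to 85.2 CPM in the rescue experiment. Experiment, library preparation and the cell populations used cannot be told apart in this difference.

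**Figure D4:**
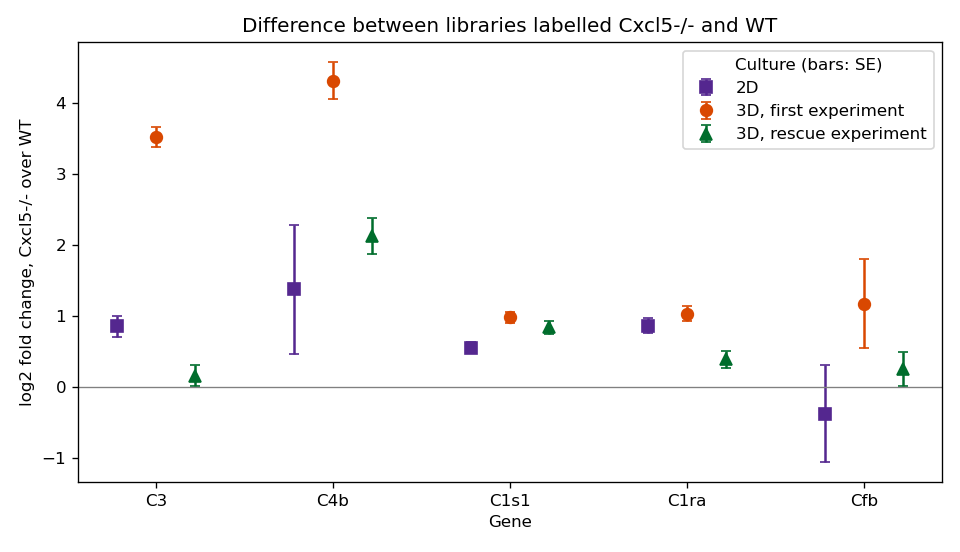
log2 fold change (± SE) of Cxcl5-/- over WT for C3, C4b, C1s1, C1ra and Cfb in 2D (squares), in 3D in the culture experiment (circles, named first experiment in the legend) and in 3D in the rescue experiment (triangles), each with the libraries as labelled. C3 lies at 3.53 in one 3D comparison and 0.17 in the other, whereas C1s1 lies at 0.99 and 0.85.

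Against Cxcl5-/-, the largest log2 fold change of Hif1aOE cells among the 5 detected members was that of Cfb. It was at 13.8, 20.7 and 19.3 CPM in Hif1aOE Cxcl5-/-, above every other library of the table, and rose 6.31-fold over Cxcl5-/- (log2 fold change 2.66 ± 0.23, adjusted p = 5.55e-06) and 7.55-fold over WT (2.92 ± 0.23, adjusted p = 1.51e-05). C4b, at 25.4, 47.2 and 42.4 CPM, rose 2.27-fold over Cxcl5-/- (1.18 ± 0.22, adjusted p = 0.00134). C3 was at 89.6, 112 and 129 CPM and overlapped Cxcl5-/- (0.33 ± 0.14, adjusted p = 0.0878). Without Hif1aOE replicate 1 the C3 value was 0.46 (adjusted p = 0.0104).

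The C1 proteases were lower with Hif1a. C1s1 was at 293, 324 and 318 CPM, between WT and Cxcl5-/-, and fell against Cxcl5-/- (-0.40 ± 0.08, adjusted p = 0.00235) while staying above WT (0.45 ± 0.08, adjusted p = 0.00296). The latter call was lost with library totals (0.27, adjusted p = 0.0704) and without WT replicate 2 (0.41, adjusted p = 0.0505). C1ra was at 46.0, 59.4 and 58.4 CPM, fell against Cxcl5-/- (-0.33 ± 0.11, adjusted p = 0.0321) and overlapped WT (0.065 ± 0.11, adjusted p = 0.694). The C1ra fall was lost without any 1 of 5 libraries, both WT, both Cxcl5-/- and Hif1aOE replicate 1 (adjusted p = 0.0523 to 0.241), and the sign of the C1ra difference from WT changed with the scaling, at -0.076 with DESeq2 size factors and -0.12 with library totals.

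With Myc, C3, C1ra and C4b rose among the 5 detected members. C3 was at 179.5, 179.8 and 172 CPM in MycOE Cxcl5-/-, above every other library of the table, and was 2.01-fold over Cxcl5-/- (1.01 ± 0.14, adjusted p = 0.000138). C1ra was at 126, 118 and 118 CPM, 1.76-fold over Cxcl5-/- (0.81 ± 0.11, adjusted p = 0.000111), and also above every other library. C4b, at 32.3, 32.5 and 28.6 CPM, rose by 0.88 ± 0.22 (adjusted p = 0.00721), a call lost with library totals (0.54, adjusted p = 0.0519) and without Cxcl5-/- replicate 1 (0.73, adjusted p = 0.0741). C1s1 was at 443, 423 and 452 CPM (0.095 ± 0.08, adjusted p = 0.374) and turned to -0.24 with library totals. Cfb was at 4.06, 4.48 and 3.14 CPM (0.45 ± 0.21, adjusted p = 0.119).

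Set against each other, the overexpressing groups differed in 4 members. MycOE Cxcl5-/- was higher than Hif1aOE Cxcl5-/- in C3 (0.68 ± 0.12, adjusted p = 0.00216), C1s1 (0.49 ± 0.07, adjusted p = 0.000621) and C1ra (1.14 ± 0.10, adjusted p = 1.06e-05), and lower in Cfb (-2.21 ± 0.19, adjusted p = 1.07e-05). C4b overlapped between them (-0.30 ± 0.19, adjusted p = 0.318). Against WT, MycOE Cxcl5-/- was higher in C3 (1.18), C4b (3.01), C1s1 (0.94), C1ra (1.21) and Cfb (0.71, adjusted p = 0.0304), and Hif1aOE Cxcl5-/- in C3 (0.49, adjusted p = 0.0257), C4b (3.31), C1s1 (0.45) and Cfb (2.92). The Cfb call for MycOE and the C3 call for Hif1aOE were each lost with DESeq2 size factors (0.58, adjusted p = 0.0639, and 0.35, adjusted p = 0.0921) and without any 1 of several libraries (adjusted p up to 0.161 and 0.188).

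Members counted past an adjusted p under 0.05 were 3 up and 1 down of 9 in Cxcl5-/- against WT, where 17.6% of 28730 genes were called up and 24.3% down and the median over all genes was -0.30. Against Cxcl5-/-, 3 rose and 2 fell in Hif1aOE cells (20.5% up, 15% down), and 4 rose and 0 fell in MycOE cells (21.6% up, 18% down). Against WT, 4 rose and 2 fell in Hif1aOE (13.9% up, 10.3% down), and 5 rose and 2 fell in MycOE (17.1% up, 14.7% down). Between MycOE and Hif1aOE, 3 were up and 1 down (9.54% up, 9.73% down). Every member called down against WT was Cd55 or Cd59a, at the low counts given below, and both passed the low-count filter through WT. Groups are shared between these comparisons.

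The regulators were measured at very low counts. Cd55 had 49 and 60 counts in WT, 0 and 0 in Cxcl5-/-, 9, 11 and 4 in Hif1aOE and 13, 5 and 3 in MycOE. In Cxcl5-/- it was at least 19.4-fold lower than in WT (adjusted p = 0.00092), and against Cxcl5-/- it was at least 2.39-fold higher in Hif1aOE and at least 2.36-fold higher in MycOE (adjusted p = 0.0121 and 0.0113), with the same floor of 3 counts per library. Cd59a had 15 and 12 counts in WT, 3 and 0 in Cxcl5-/- and 0 in the other 6 libraries, at least 5.38-fold and 4.93-fold lower than WT in Hif1aOE and MycOE (adjusted p = 0.048 and 0.0418). With more than 3 counts only in WT, Cd59a passed the low-count filter through the group where it was high. Its calls against WT are not independent of that filter. Cd55 also passed the filter through WT, which held most of its counts, so its calls against WT are not independent of the filter either. These Cd59a calls were lost by DESeq2 (adjusted p = 0.137 and 0.127), with no filter (0.106 and 0.0925) and with the replicate block (0.209 and 0.196). The Hif1aOE call was also lost with library totals (0.0514). Leaving out any 1 of 7 libraries took the Hif1aOE call away, and any 1 of 6 the MycOE call. Both WT libraries were among them, at log2 fold changes of -6.74 and -7.07. The rises of Cd55 over Cxcl5-/- were lost without either Cxcl5-/- library (adjusted p = 0.0616 to 0.0684). Against WT Cd55 was lower in Hif1aOE and MycOE (adjusted p = 0.0219 and 0.0167), both lost without either WT library (log2 fold changes of -3.14 to -2.84). The Hif1aOE call was also lost without Hif1aOE replicate 1 or 3 (adjusted p = 0.0508 and 0.0575) and with the replicate block (0.0624). Serping1 had 12 and 32 counts in WT and at most 14 elsewhere, and Cfd 17 and 9 in WT and at most 8 elsewhere, neither being called in any rescue comparison. Cd55, Cd59a and Cfd were highest in both WT libraries, those with the most genes at low counts, while Serping1 overlapped, and Gm16083, which lies antisense to Cd55, had 34 and 35 counts in the same WT libraries and 0 in Cxcl5-/-. The part of this low-level signal in the Cd55 and Cd59a calls was not tested.

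**Figure D5:**
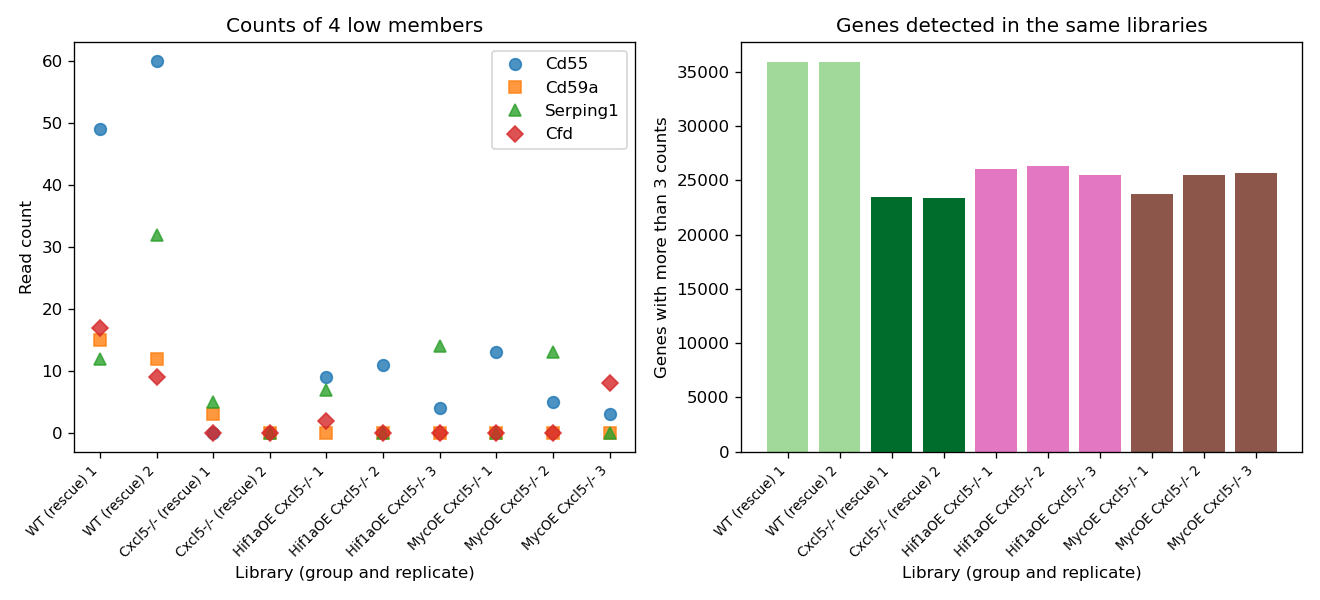
Left, read counts of Cd55, Cd59a, Serping1 and Cfd in the 10 libraries of the rescue table. Right, the number of genes with more than 3 counts in the same libraries, 35865 and 35921 in WT against 23421 to 26302 elsewhere. Cd55, Cd59a and Cfd are also highest in WT.

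Of the wider complement list 38 genes were tested in the rescue table. In Cxcl5-/- against WT 11 rose and 7 fell, beside 17.6% and 24.3% of all genes, with a median of -0.62 beside -0.30 over all genes, and 4 of the 7 that fell (Colec10, Colec12, C9 and Itgax) were at 0 in Cxcl5-/- and at means of 0.296 to 0.811 CPM in WT. Against Cxcl5-/-, 5 rose and 9 fell in Hif1aOE (median 0.21 beside 0.16, with 20.5% and 15% of all genes called), and 7 rose and 4 fell in MycOE (0.39 beside 0.11, with 21.6% and 18%). Clu was at 33.2 to 42.9 CPM in MycOE against 4.51 to 5.40 CPM in Hif1aOE (2.95, adjusted p = 1.13e-07). Masp1, the lectin-pathway protease, named after its values were seen, was at 732 and 734 CPM in Cxcl5-/-, 157 and 168 CPM in WT, 293 to 336 CPM in Hif1aOE and 99.9 to 103 CPM in MycOE.

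Over the 10 rescue libraries C3 followed C1ra (r = 0.866) more closely than C1s1 (0.696), C4b (0.675) or Cfb (0.153), and the genes most like C3 were Ccdc85c (0.990), Tab1 (0.978) and 1700086O06Rik (0.969). These are descriptions over libraries that share groups. Fibroblast markers summed to 77.6 to 81.7 CPM in WT, 459 to 466 CPM in Cxcl5-/-, 137 to 174 CPM in Hif1aOE and 312 to 343 CPM in MycOE, with 0 of 7 at 3 counts or fewer in every group. Ductal and epithelial markers summed to 857 to 904, 288 to 303, 707 to 839 and 268 to 313 CPM, with 0, 2, 1 and 2 of 8 at 3 counts or fewer, Epcam at 0 in all but WT. Macrophage markers summed to 32.5 to 61.1 CPM and endothelial markers to 0.199 to 3.85 CPM, the latter highest in WT. Their part in the levels of C4b and C1s1, which were also higher in Cxcl5-/- than in WT, was not tested.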

How the data were processed

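RNA was sequenced by the authors as stranded total RNA in pairs of 101 bases. Per the labels and the study's methods, the authors aligned reads to GRCm38 (mm10) with HISAT2 and made the deposited counts with StringTie. Versions, annotation release and the conversion to whole counts are not given in the sources used here. Genes were placed with GENCODE M21 and promoters taken from RefSeq (GRCm38.p6). The deposited values were raw read counts per gene. Groups came from the labels.

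Each table was filtered with filterByExpr, scaled by TMM and fitted in edgeR 4.0.16 (R 4.3.3) with all its groups by the quasi-likelihood test, and p-values were adjusted by Benjamini-Hochberg over all genes tested. Calls required an adjusted p under 0.05 and, for conditioned media, an absolute log2 fold change over 1. SE is the absolute log2 fold change over the square root of F. The fit was tested on simulated data. DESeq2 1.42.0, other scalings, filters, the replicate block and leaving out libraries were tried. The floor was 3 counts.

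Members, lists and added comparisons were chosen with earlier results of these data known. Named were the members, their paralogs, Cxcl5, Hif1a and Myc, the 3 genes most correlated with C3 per table and, per comparison, up to 4 genes of the wider list past the limit with the largest change. A gene of the wider list that this rule names is not reported here. Levels per kilobase used the union of exons. Correlations of same-numbered deviations ran from -0.24 to 0.36. Differently numbered libraries were not set beside them, so whether replicate numbers pair the samples was not settled.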

Additional observations from a re-analysis of the deposited data

Results flagged for a closer look

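The genotype effect differed between culture formats for 2 members, by the edgeR test of the difference itself. C3 had a genotype effect larger in 3D than in 2D by 2.67 on the log2 scale (adjusted p = 1.35e-06, SE 0.20) and C1s1 by 0.43 (adjusted p = 0.012, SE 0.11). The 3D side of both uses the libraries labelled Cxcl5-/- in which the Cxcl5 transcript stood above WT, which does not test the label. Hif1a (-1.21) and Myc (-1.75) were lower there, as they were in the rescue libraries.

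Between the 2 experiments the 3D genotype effect differed for 3 members, by the same kind of test. C3 differed by 3.38 (adjusted p = 5.35e-06), C4b by 2.20 (adjusted p = 0.00024) and C1ra by 0.66 (adjusted p = 0.0395), all larger in the culture experiment. C1ra lost this call when any 1 of 8 of the 10 libraries was left out. No member was called lower.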

How the results depend on the processing

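The number of members past the limit moved by more than 1.5 times in these cases. With M1-CM against Ctrl the count was 1, 0 with the replicate block and 2 by DESeq2; against M0-CM it was 1, 0 with DESeq2 size factors, library totals, at least 10 counts in every sample, the replicate block or only the groups compared, and 2 by DESeq2. DESeq2 also called 58 genes up and 16 down (M1-CM against Ctrl), 17 and 8 (against M0-CM) and 14 and 3 (M0-CM against Ctrl), beside 3, 3 and 0 up and none down in edgeR. An added fold limit of 1 left 0 for 2D Cxcl5-/-, 1 for the difference of genotype effects, 2 for rescue Cxcl5-/- against WT, 3 for Hif1aOE and 2 for MycOE against Cxcl5-/-, and 2 for MycOE against Hif1aOE. At least 10 counts in every sample left 3 for 3D against 2D in Cxcl5-/-, 3 for Hif1aOE and 4 for MycOE against WT. Only the groups compared gave 3 for Hif1aOE against Cxcl5-/-, and library totals 3 for Hif1aOE against WT.

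Leaving out 1 library gave 0 to 1 members for each M1-CM comparison, 0 to 0 for M0-CM against Ctrl, 4 to 5 for 3D against 2D in WT, 3 to 3 for 2D Cxcl5-/-, 4 to 5 for the 3D genotypes, 5 to 6 for 3D against 2D in Cxcl5-/-, 2 to 3 for the difference of genotype effects, 3 to 5 for rescue Cxcl5-/- against WT, 3 to 5 for Hif1aOE and 2 to 4 for MycOE against Cxcl5-/-, 2 to 6 and 4 to 7 against WT, 4 to 5 between them and 2 to 4 between the experiments.

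Signs changed for Cfb in M0-CM against Ctrl (0.094 with Gm20547 added), Cfb in 2D Cxcl5-/- (0.064 with Gm20547 added, and -0.93 to 0.24 over the libraries left out), C1s1 in MycOE against Cxcl5-/- (-0.24, library totals) and C1ra in Hif1aOE against WT (-0.076 with DESeq2 size factors and by DESeq2, -0.12 with library totals, -0.090 with at least 10 counts, and -0.0075 to 0.17 over the libraries left out).

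Library totals moved the median log2 fold change of all genes in the 3D genotypes from -0.04 to 0.35, and the share of calls that were up from 43.9% to 75.8%. That share went from 50.2% to 34.7% for 3D against 2D in WT, 40.9% to 77.1% for the difference of genotype effects, 57.8% to 43.6% and 54.6% to 36.3% for Hif1aOE and MycOE against Cxcl5-/-, 57.5% to 38.1% and 53.7% to 28.5% against WT, 49.5% to 36.1% between them, and 37.7% to 65.6% between experiments. With DESeq2 size factors it was 40.5%, 42.2% and 52.1% for Hif1aOE and MycOE against WT and between experiments. The cause was not tested. Whether the replicate numbers pair the samples was not settled, and the replicate block took the C3 calls with M1-CM to adjusted p = 0.0607 and 0.160.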
